A study of Mus musculus with 8 samples.

Results

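Glucose and lactate handling was followed in 10 genes: Slc2a1, Hk1, Hk2, Pkm, Ldha, Ldhb, Slc16a1, Mpc1, Mpc2 and Pdk1. The members were found by their gene symbol, and all 10 were present among the 23861 genes of the table of hair follicle stem cells (HFSCs) and the 16231 genes of the table of interfollicular epidermal stem cells (EpdSCs). The set was chosen by rules set with results of these data known, among them the HFSC value of Slc16a1, so the HFSC genotype comparison is given for the members as a description without a test. Bulk RNA-seq had been done on cells sorted from mouse dorsal skin, with HFSCs taken as CD34+CD49f+Sca-1- and EpdSCs as CD34-CD49f+Sca-1+. There were 2 libraries in each of 4 groups, 8 in all. The WT HFSC libraries came from mice 2 months old, and the Msx2-KO HFSC, WT EpdSC and Msx2-KO EpdSC libraries from mice 6 months old. All 8 libraries were labelled as telogen, the resting phase of the hair cycle. The Msx2-KO mice were homozygous, in every cell of the body, for an allele with a pMC1-neo cassette inserted upstream of exon 2 of Msx2, and the WT mice were hair cycle-matched C57BL/6J animals. In HFSCs, genotype and age cannot be told apart. Library names also split by genotype, by their prefix in HFSCs (YC in WT, Ch in Msx2-KO) and by separate runs of numbers in EpdSCs. What the names stand for is not said, and it cannot be told apart from genotype in either cell type. The labels do not say that replicates came from separate animals, so each p-value measures only the spread between these samples, which may be technical.

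A cell takes up glucose through transporters such as GLUT1 (Slc2a1), traps it with a hexokinase, and carries it through glycolysis to pyruvate, whose last step is catalysed by pyruvate kinase. Lactate dehydrogenase turns pyruvate into lactate and back, the monocarboxylate transporter MCT1 (Slc16a1) moves lactate and pyruvate across the plasma membrane, and the mitochondrial pyruvate carrier brings pyruvate to the pyruvate dehydrogenase complex, which PDK1 inhibits. HFSCs are known for a strong use of glycolysis and of lactate dehydrogenase, and the entry of pyruvate into their mitochondria is known to bear on how readily they leave rest.

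Promoter sequences are shown for Slc16a1, Ldha, Hk2 and Slc2a1, which hold the core of the hypoxia response element, ACGTG, shortly before a RefSeq start. Pdk1, the member with the largest positive EpdSC difference, is shown too and held no match in its windows. Pkm also held a match but is not shown. A relation of the matches to the expression differences was not tested, and sequence outside the windows was not searched. The sequences are the 250 bases before the start from RefSeq on GRCm38.p6, written 5′ to 3′ on the gene's strand, with each ACGTG on either strand (ACGTG or CACGT) in capitals. Where the matches overlap they spell the E-box CACGTG, and for Ldha the window before the upstream RefSeq start is shown. For Slc2a1 only a short stretch is printed, since the last 34 bases of its window lie in an annotated exon. Its match, which begins at position -36, runs into that exon, and so do the printed bases after it.
Slc16a1 (chr3:104638414-104638663, strand +): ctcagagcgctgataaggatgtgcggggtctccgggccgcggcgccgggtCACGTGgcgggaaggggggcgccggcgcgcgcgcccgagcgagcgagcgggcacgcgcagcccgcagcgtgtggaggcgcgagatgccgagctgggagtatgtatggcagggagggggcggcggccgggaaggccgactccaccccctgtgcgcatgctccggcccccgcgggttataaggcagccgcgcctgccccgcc
Ldha (chr7:46845554-46845803, strand +): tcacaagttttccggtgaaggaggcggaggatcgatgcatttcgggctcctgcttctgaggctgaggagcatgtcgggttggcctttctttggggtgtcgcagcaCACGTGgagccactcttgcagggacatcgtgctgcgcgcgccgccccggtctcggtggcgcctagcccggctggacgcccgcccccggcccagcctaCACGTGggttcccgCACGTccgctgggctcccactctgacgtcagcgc
Hk2 (chr6:82774455-82774704, strand -): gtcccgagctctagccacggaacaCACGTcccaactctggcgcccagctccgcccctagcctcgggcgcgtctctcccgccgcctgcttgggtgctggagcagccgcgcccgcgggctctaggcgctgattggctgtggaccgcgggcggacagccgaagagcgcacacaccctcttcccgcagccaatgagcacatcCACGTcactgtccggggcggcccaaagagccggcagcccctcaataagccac
Pdk1 (chr2:71872974-71873223, strand +): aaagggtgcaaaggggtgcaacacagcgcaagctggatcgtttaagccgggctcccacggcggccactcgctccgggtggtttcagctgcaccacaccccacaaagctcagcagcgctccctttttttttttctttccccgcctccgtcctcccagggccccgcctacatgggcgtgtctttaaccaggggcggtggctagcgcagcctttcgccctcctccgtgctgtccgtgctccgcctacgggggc
Slc2a1 (25 bases around the match): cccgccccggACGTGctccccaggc

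Slc16a1 held 1 capitalised stretch, an E-box whose first match began at position -200 counted from the start. Ldha held 3, of which 2 were E-boxes, in the window of its upstream start and none in that of its downstream start. Hk2 held 2, at positions -226 and -52 counted from its start, and Slc2a1 held 1 at position -36. Pkm held 1 before the downstream of its RefSeq starts, while Ldhb, Hk1, Mpc1, Mpc2 and Pdk1 held none in these windows. ACGTG was found on either strand in 16.6% and CACGTG in 6.02% of the 32851 RefSeq promoter windows of the same length, of which the median GC content was 52.4%. GC content was higher than that in most members' windows, at 76.4% for Slc16a1, 67.2% for Ldha and 69.6% for Hk2. A match is a description of the letters and not evidence of binding.

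The HFSC table held estimated counts, which were scaled with TMM factors to 5610068.5 counts per library and are given below as normalized counts. The EpdSC table held values that the authors had already normalized, so levels in the 2 cell types are on separate scales and no test spans them. Library totals in HFSCs ran from 3132974 to 11016659 counts, of which mitochondrial and ribosomal RNA genes took 12.5% and 41.9% in WT and 58.3% and 64.1% in KO-labelled libraries. In EpdSCs an estimated 15214241 to 21092705 counts lay behind a library. Replicate 1 of the KO-labelled libraries held the fewest genes with a value in each cell type, 11409 against 14251 to 22447 in the other HFSC libraries and 12730 against 15167 to 15938 in the other EpdSC libraries. Msx2 itself had 53 and 7 deposited counts in WT HFSCs and 40 and 18 in KO-labelled ones, and 58.5 and 85.4 against 150.3 and 22.2 in EpdSCs. These gene-level values do not separate the libraries by genotype, and because they do not say which exons were read, the libraries are called WT or KO-labelled after their labels alone. Cd34 was measured in all HFSC libraries and is not in the EpdSC table used here, and Ly6a, which encodes Sca-1, is not in the HFSC table used here.

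In HFSCs, 6 of the 10 members had the pair of KO-labelled libraries above the pair of WT libraries: Slc16a1, Ldha, Ldhb, Hk2, Pkm and Mpc1. None had both below, and Slc2a1, Hk1, Mpc2 and Pdk1 overlapped between the groups. Over all 14422 genes tested, 17.5% lay above and 33.5% below in the same sense. edgeR called 0% of the genes higher and 0% lower at an adjusted p under 0.05 and a fold change over 2. Its smallest adjusted p (quasi-likelihood test, Benjamini-Hochberg) was 0.143, and 2614 genes had an unadjusted p under 0.05. DESeq2 called 674 genes and limma-trend 1407. The median log2 fold change of the members was 0.69 against -0.14 over all genes tested.

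In EpdSCs, 6 members had the pair of KO-labelled libraries above the pair of WT libraries (Slc16a1, Slc2a1, Ldha, Mpc1, Mpc2 and Pdk1) and 3 had both below (Hk1, Hk2 and Pkm). Only Ldhb overlapped. Over all 16231 genes tested, 27.8% lay above and 44.5% below. limma called 1.57% of the genes higher and 7.78% lower by the same thresholds, and 0 of the 10 members, of which 5 had an unadjusted p under 0.05 against 5726 of all genes, or 35.3%. The members' median log2 fold change was 1.22 against -0.64 over all genes. Slc16a1, Ldha and Mpc1 lay above WT without overlap in both cell types, and Hk2 and Pkm lay above WT in HFSCs and below it in EpdSCs.

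**Figure D1:**
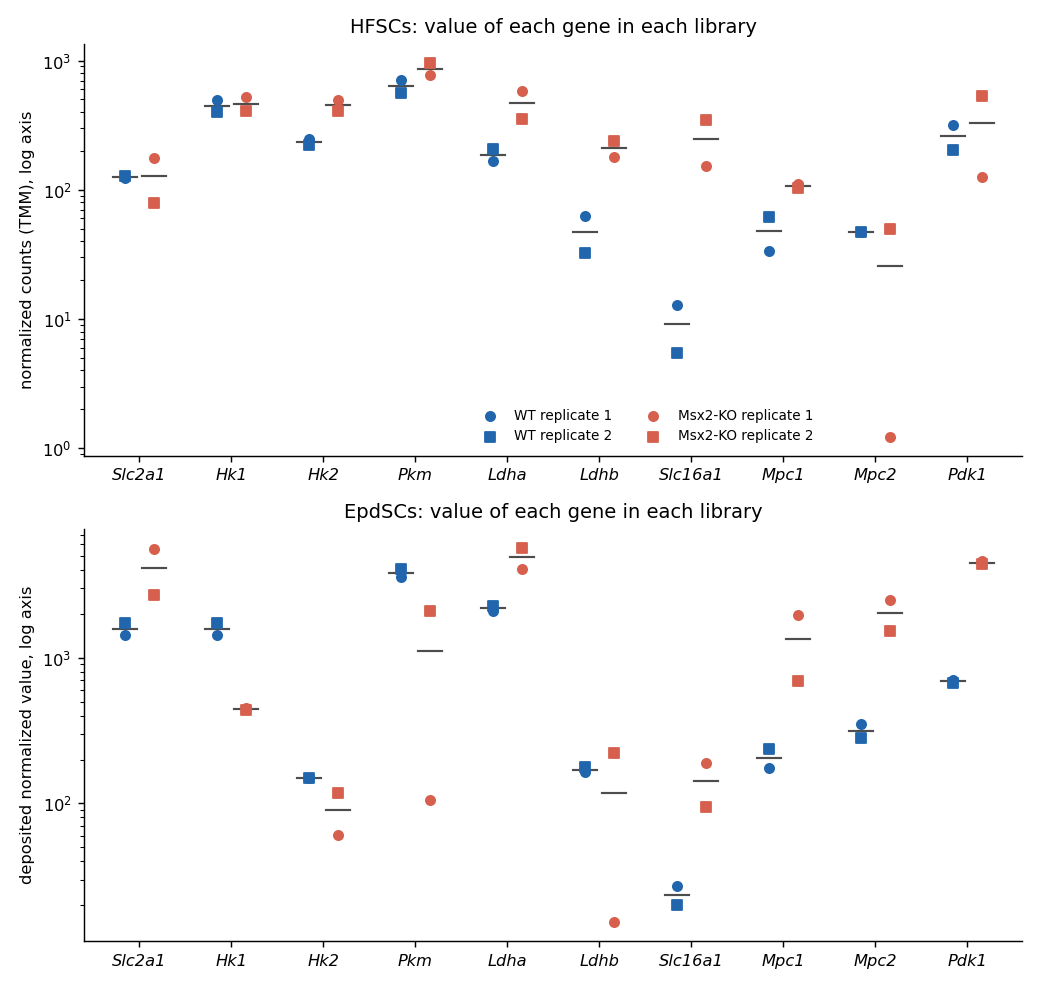
Value of the 10 genes in each library, on a log axis of normalized counts for HFSCs (top) and of the deposited normalized values for EpdSCs (bottom), with blue for WT, orange for KO-labelled libraries, circles for replicate 1, squares for replicate 2 and lines for the mean of each group of 2. Slc16a1 stands at 12.7 and 5.44 in WT HFSCs against 154 and 344, and Pdk1 at 699.7 and 674 in WT EpdSCs against 4622 and 4373.

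Counts of other cell types' markers differed between the genotypes in the same libraries and are given as summed protein-coding CPM, counts scaled to a common total of protein-coding counts per library. In HFSCs the 10 measured sebaceous gland markers were all higher without overlap, with sums of 199 and 231 in WT and 4320.4 and 3248 in KO-labelled libraries. Suprabasal epidermis markers summed to 443 and 451 against 2065 and 8247, with 7 of 8 tested higher. The sebaceous marker Cidea and the suprabasal marker Lor were at 0 in both WT HFSC libraries. Cycling cell markers summed to 142 and 148 against 1461 and 1155, with 6 of 8 higher. Bulge markers were lower in 7 of 9, with sums of 14866 and 13235 against 8644 and 9943. Basal epidermis markers in HFSCs were lower in 4 of 6 and higher in 1, with sums of 18072 and 16647 against 12610 and 12391. In EpdSCs suprabasal markers were lower in 6 of 9, with sums of 30229 and 21841 in WT against 4880.1 and 6755. Immune markers summed to 77.1 and 5.63 against 0.116 and 0.333, with Ptprc, Cd207 and Cd3e at 0 in both KO-labelled libraries. Basal epidermis markers were higher in 4 of 7 and lower in 1. Bulge markers in EpdSCs were higher in 2 of 6 and lower in 0, with sums of 8188 and 9892 in WT against 10561 and 14809. Cycling cell markers were higher in 5 of 8 and lower in 1, and their sums overlapped, at 468 and 428 in WT against 496 and 375. Beside these differences, 17.5% of all genes tested lay above WT and 33.5% below in HFSCs, and 27.8% and 44.5% in EpdSCs. The part of these differences, and of the mitochondrial and ribosomal RNA, in the members' values was not tested. In bulk RNA, a change in the share of a cell type and a change in the RNA per cell cannot be told apart.

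Slc2a1, on chromosome 4 from 119108711 to 119137983 (GRCm38, as for all genes), encodes GLUT1, the main glucose transporter of basal keratinocytes. In HFSCs it had 124 and 127 normalized counts in WT and 177 and 78.6 in KO-labelled libraries, which lay on either side of WT. Its log2 fold change of 0.03 (SE 0.59) was near 0, and -0.76 when the counts were scaled to library totals. In EpdSCs the values were 1432 and 1730.0 in WT and 5574 and 2681 in KO-labelled libraries. Both of the latter were higher, by 2.61-fold in the means and 1.49-fold in protein-coding CPM. That difference, a log2 fold change of 1.30 with a standard error of 0.60, did not pass the test (limma, adjusted p = 0.208 over all genes).

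Hk1 and Hk2 encode the hexokinases that phosphorylate glucose, Hk1 being broadly expressed and Hk2 the more inducible enzyme. Hk1 lies on chromosome 10 from 62268855 to 62379908 and Hk2 on chromosome 6 from 82725025 to 82774454. In HFSCs Hk1 had 492 and 397 normalized counts in WT and 520.0 and 404 in KO-labelled libraries, which overlapped. Hk2 had 246 and 221.3 in WT and 493 and 407 in KO-labelled libraries. Both values of the latter were higher, by a log2 fold change of 0.94 (SE 0.27) that became 0.08 when the counts were scaled to library totals, and the replicates of each group lay close together. Scaling to library totals moved the median of all genes from -0.14 to -1.002, below which Hk2 did not come.

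In EpdSCs Hk1 had values of 1422 and 1719.6 in WT and 455 and 439 in KO-labelled libraries. The groups did not overlap, at 447 ± 11.2 (SD, n = 2) against 1571 ± 210.3 (SD, n = 2). In protein-coding CPM Hk1 had 143 and 173 in WT and 20.7 and 36.1 in KO-labelled libraries, which lay further from each other. The log2 fold change of -1.81 (SE 0.47) did not pass the test (limma, adjusted p = 0.0924). Hk2 had 148 and 149.9 in WT and 61.1 and 119 in KO-labelled libraries. Both lay below WT, by a log2 fold change of -0.80 (SE 0.57; limma, adjusted p = 0.356), close to the median of all genes at -0.64.

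The balance of the hexokinases does not depend on how libraries were scaled, since both are read in the same library. Of the counts of both genes in HFSCs, Hk2 made up 33.4% (95% exact binomial interval 30.4 to 36.4) and 35.8% (30.7 to 41.1) in WT. In the KO-labelled libraries its share was 48.7% (46.2 to 51.1) and 50.2% (46.4 to 54.0). The ratio of Hk2 to Hk1 was 1.85-fold higher without overlap, a description given no test. In EpdSCs the share of Hk2 was 9.45% (7.99 to 11.1) and 8.02% (6.86 to 9.30) in WT and 11.9% (8.87 to 15.4) and 21.3% (18.5 to 24.2) in KO-labelled libraries. There the ratio was 2.00-fold higher, with both genes lower, and the interval of replicate 1 overlapped those of WT. The exact permutation test, two-sided, gave p = 0.333, the smallest that 2 libraries against 2 allow. The intervals cover counting error only.

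**Figure D2:**
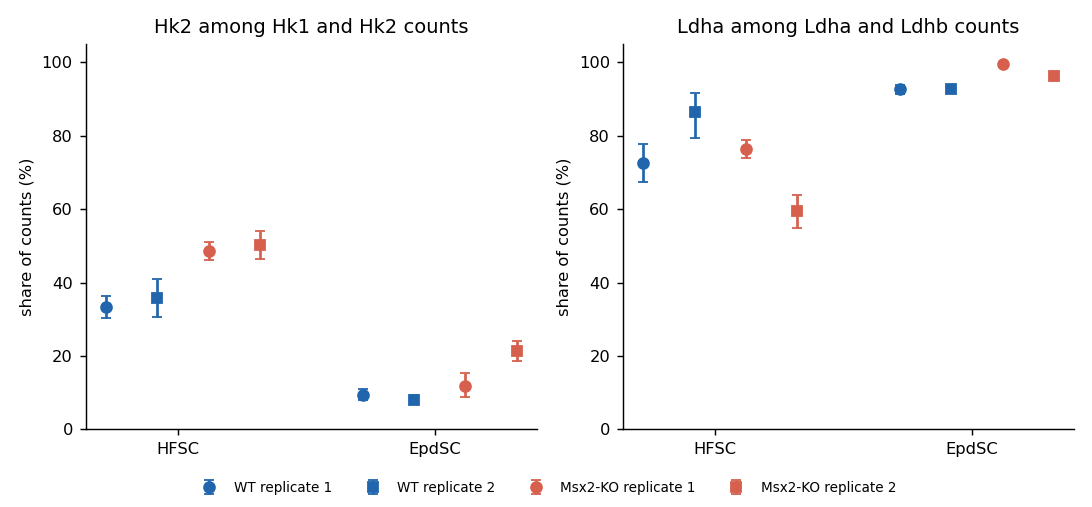
Share of Hk2 among the counts of Hk1 and Hk2 (left) and of Ldha among those of Ldha and Ldhb (right), in percent, for each library of HFSCs and EpdSCs, with exact 95% binomial intervals as bars, blue for WT and orange for KO-labelled libraries. The share of Hk2 was 33.4% and 35.8% in WT HFSCs against 48.7% and 50.2%, and that of Ldha was above 90% in the 4 EpdSC libraries.

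Pkm, on chromosome 9 from 59656368 to 59679375, encodes pyruvate kinase M, which makes pyruvate in the last step of glycolysis. It had 713 and 564 normalized counts in WT HFSCs and 768 and 962 in KO-labelled ones. The groups did not overlap but the gap from 713 to 768 was smaller than the spread within either group. Its log2 fold change was 0.44 (SE 0.26), and -0.48 when the counts were scaled to library totals. In EpdSCs it had 3559 and 4088 in WT and 106 and 2102 in KO-labelled libraries. Both lay below WT, and replicate 1 lay far below replicate 2. The log2 fold change was -3.01 (SE 1.63; limma, adjusted p = 0.251), and -0.86 without replicate 1. Pkm shares 767 exonic bases with Gm49759 on the same strand, so counts of that stretch could be split between them.

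Ldha and Ldhb encode the subunits of lactate dehydrogenase, of which the A form is usually linked to making lactate and the B form to using it. Ldha lies on chromosome 7 from 46841475 to 46855627 and Ldhb on chromosome 6 from 142490249 to 142507957. Ldha had 166 and 209 normalized counts in WT HFSCs and 579.9 and 352 in KO-labelled ones. Both of the latter were higher, by a log2 fold change of 1.32 (SE 0.37). In EpdSCs Ldha had 2090.4 and 2277 in WT and 4093 and 5673 in KO-labelled libraries, again without overlap. The difference, a log2 fold change of 1.14 (SE 0.49), did not pass the test (limma, adjusted p = 0.186). In protein-coding CPM, the EpdSC groups of Ldha overlapped, with 210.3 and 229 in WT against 186 and 467. Mitochondrial and ribosomal RNA took 29.0% and 22.8% of the EpdSC values in WT and 5.16% and 8.35% in KO-labelled libraries.

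Ldhb had 62.2 and 32.6 normalized counts in WT HFSCs and 178 and 241 in KO-labelled ones. This was the second largest difference among the members in HFSCs, a log2 fold change of 2.13 (SE 0.57) with no overlap. In EpdSCs the values were 164 and 177 in WT and 15.3 and 220.2 in KO-labelled libraries. Replicate 1 lay far below WT and replicate 2 above it, so that the log2 fold change of -1.52 (SE 1.44; limma, adjusted p = 0.470) turned to 0.37 without replicate 1. Ldhb has a near-identical pseudogene copy, Ldhb-ps, with 15.8 and 11.5 deposited counts in WT HFSCs beside 83.2 and 17.5 of Ldhb, and with both counted together the HFSC log2 fold change was 1.90.

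Of the counts of both subunit genes, Ldha made up 72.7% and 86.5% in WT HFSCs and 76.5% and 59.4% in KO-labelled ones. These shares overlapped between the genotypes, while Ldha and Ldhb were each higher in both KO-labelled libraries. In EpdSCs the share was 92.7% and 92.8% in WT and 99.6% and 96.3% in KO-labelled libraries, without overlap. The ratio of Ldha to Ldhb was 6.49-fold higher (exact permutation test, two-sided, p = 0.333, the smallest that 2 libraries against 2 allow). The log2 difference behind it was 2.699, and 1.01 without replicate 1 of the KO-labelled libraries.

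Slc16a1, on chromosome 3 from 104638668 to 104658462, encodes MCT1, and its promoter window is printed above. It showed the largest difference among the members in HFSCs, with 17 and 3 deposited counts in WT and 252 and 289 in KO-labelled libraries. As normalized counts these were 12.7 and 5.44 against 154 and 344. The KO-labelled pair stood far above the WT pair, and each group had a spread of more than 2-fold. The means were 9.09 ± 5.16 (SD, n = 2) and 249 ± 134 (SD, n = 2), a 27.4-fold difference with a log2 fold change of 4.70 (SE 0.81). It was 3.69 when scaled to library totals, and ran from 3.92 to 5.47 when each library was left out in turn. The WT mean rests on those 17 and 3 counts, so the size of the fold is known only roughly.

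In EpdSCs Slc16a1 had 27.1 and 19.9 in WT and 188 and 94.4 in KO-labelled libraries. Both of the latter were higher, by 6.02-fold in the means and 3.45-fold in protein-coding CPM, but the difference did not pass the test (log2 fold change 2.47, SE 0.60; limma, adjusted p = 0.0843). Bsg, whose product basigin carries MCT1 to the membrane, had 195 and 241 normalized counts in WT HFSCs and 504 and 268 in KO-labelled ones, and 2777 and 2973 against 3373 and 3636 in EpdSCs. The ratio of Slc16a1 to Bsg, which does not depend on scaling, was 0.0651 and 0.0226 in WT HFSCs, resting on those 17 and 3 counts, and 0.306 and 1.28 in KO-labelled ones. In EpdSCs it was 0.00975 and 0.00670 in WT against 0.0559 and 0.0260. The groups did not overlap in either cell type, and the KO-labelled replicates differed by more than 2-fold. Slc16a3, which encodes the lactate exporter MCT4, was too low to be tested in HFSCs and had 64.0 and 135 in WT EpdSCs against 0 and 154.

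Mpc1 and Mpc2 encode the partners that form the mitochondrial pyruvate carrier, a heterodimer of the inner membrane. Mpc1 lies on chromosome 17 from 8282904 to 8297661 and Mpc2 on chromosome 1 from 165460637 to 165481214. Mpc1 had 33.7 and 61.7 normalized counts in WT HFSCs and 110.0 and 104 in KO-labelled ones, higher without overlap (log2 fold change 1.17, SE 0.71). Mpc2 had 47.2 and 47.2 in WT and 1.22 and 50.01 in KO-labelled libraries. Replicate 1 of the KO-labelled libraries thus held only 2 deposited counts of Mpc2 while replicate 2 matched WT, and the log2 fold change of -0.89 (SE 1.82) was 0.06 without replicate 1. In that replicate 1 Mpc1 had 180.0 deposited counts.

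In EpdSCs Mpc1 had 174 and 236 in WT and 1973 and 694 in KO-labelled libraries. Mpc2 had 349 and 283 in WT and 2505 and 1522 in KO-labelled libraries. Both genes were higher without overlap, by 6.499-fold and 6.38-fold in the means, and by 3.55-fold and 3.76-fold in protein-coding CPM. The log2 fold changes were 2.52 (SE 0.73; limma, adjusted p = 0.107) and 2.63 (SE 0.54; limma, adjusted p = 0.0655). The ratio of Mpc1 to Mpc2 overlapped between the EpdSC groups, with 0.499 and 0.836 in WT and 0.788 and 0.456 in KO-labelled libraries. Mpc1 has a pseudogene copy, Mpc1-ps, and counted together with it had a log2 fold change of 2.24 in EpdSCs and 1.26 in HFSCs. Mpc1 also shares 480 exonic bases with 4930506C21Rik on the opposite strand, which cannot be told apart unless strand was used in counting.

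Pdk1, on chromosome 2 from 71873224 to 71903858, encodes pyruvate dehydrogenase kinase 1, which holds back the entry of pyruvate into the citric acid cycle. In HFSCs it had 318 and 201 normalized counts in WT and 125 and 531 in KO-labelled libraries, which lay below and above WT (log2 fold change 0.33, SE 0.78, and -0.70 when scaled to library totals). In EpdSCs it had 699.7 and 674 in WT and 4622 and 4373 in KO-labelled libraries. On this scale the groups stood at 687 ± 17.9 and 4498 ± 176 (SD, n = 2 each), 6.55-fold apart. In protein-coding CPM the KO-labelled replicates lay further from each other, with 70.4 and 67.9 in WT against 210.0 and 359.8, and the means were 4.12-fold apart. The log2 fold change of 2.71 (SE 0.46) was larger than that of 93.4% of the genes tested and missed the threshold (limma, adjusted p = 0.0505). It passed with 3 other settings, with adjusted p-values from limma of 0.0365 at the lowest and 0.102 at the highest over the settings that kept all libraries.

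**Figure D3:**
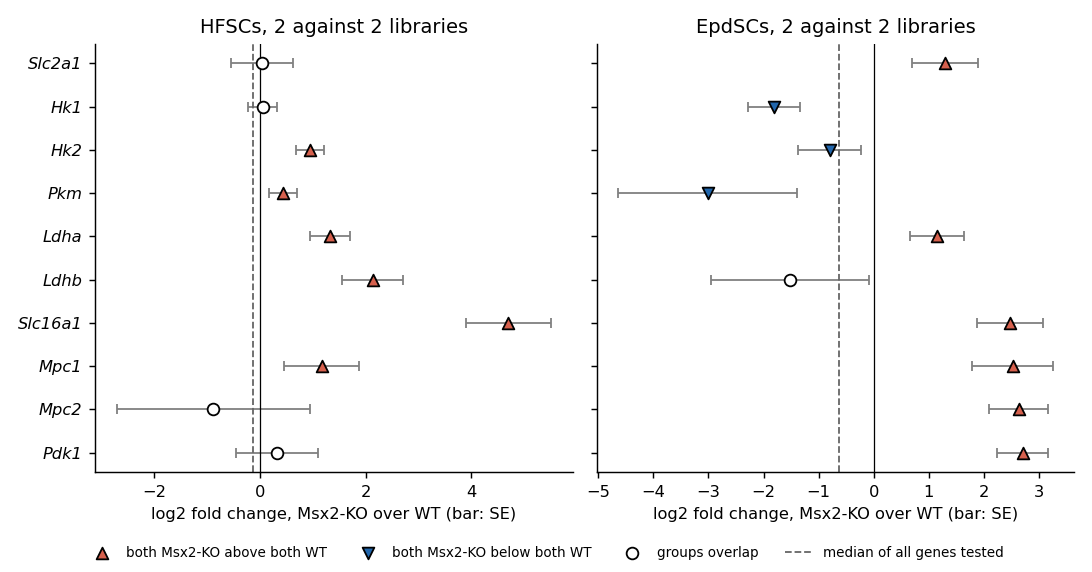
Log2 fold change of each gene, Msx2-KO over WT, in HFSCs (left) and EpdSCs (right), with the standard error as a bar. Orange triangles point up where all KO-labelled libraries exceeded all WT libraries and blue triangles down where both lay below, white circles mark overlap, and the dashed line is the median of all genes tested, -0.14 in HFSCs and -0.64 in EpdSCs.

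Single libraries set several of these values. Without replicate 1 of the KO-labelled libraries, 8 members were higher and 1 lower without overlap in HFSCs, against backgrounds of 39.2% and 51.1% of genes, and without replicate 2 these were 8 and 2, against 34.7% and 57.0%. In EpdSCs the members higher without overlap numbered 6 or 7 and those lower 3 or 4 when any library was left out, against 30.6% to 38.3% of genes higher and 47.8% to 56.6% lower. Scaled to library totals, only Slc16a1, Ldhb and Mpc1 were higher and Mpc2 lower without overlap in HFSCs, against 5.98% and 49.8% of genes. In protein-coding CPM, the HFSC members higher without overlap numbered 6 and the EpdSC members 5, against 21.6% and 19.3% of genes, and those lower 0 and 3, against 28.2% and 54.6%.

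Levels were compared between genes per kilobase of exon, in protein-coding CPM. The length of a gene was the total of all exon bases that GENCODE annotates for it, over all transcripts. Such a length can exceed that of the transcript present, so the order of the genes depends on this choice. In WT HFSCs Pkm was the highest, at 49.9, followed by Ldha at 21.8 and Hk1 at 20.4, which overlapped. Hk2, Slc2a1, Pdk1, Ldhb and Mpc1 formed a run from 15.3 to 8.83 in which each gene overlapped the next. Mpc2 at 2.496 and Slc16a1 at 0.813 were lowest on this scale, below the others and apart from each other. Mpc2 was divided by 7344 bases and Mpc1 by 2082. Before length scaling these genes overlapped in WT HFSCs, with 19.2 and 17.5 for Mpc2 and 13.6 and 23.1 for Mpc1 in protein-coding CPM. In KO-labelled HFSCs the order began with Pkm at 78.4, Ldha at 63.6 and Ldhb at 60.6, which overlapped in turn. Slc16a1 moved from the last place to a level of 25.6, which overlapped Hk2 at 34.1 and Hk1 at 24.5.

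In WT EpdSCs the order began with Pkm at 76.9, Ldha at 66.4, Slc2a1 at 45.4 and Hk1 at 18.5, none of which overlapped the next. Hk2 at 2.51 and Slc16a1 at 0.534 were lowest. In KO-labelled EpdSCs Ldha at 98.6 and Slc2a1 at 67.6 overlapped at the top and were followed by Pdk1 at 36.6 and Mpc1 at 35.2. Pkm stood at 0.960 in replicate 1 and 34.6 in replicate 2, and Hk1 had a mean of 3.33. In protein-coding CPM, the 10 genes together summed to 901 and 691 in WT HFSCs and 1385 and 1597 in KO-labelled ones, without overlap. In EpdSCs they summed to 1012 and 1143 in WT and 890.1 and 1474 in KO-labelled libraries, which overlapped.

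**Figure D4:**
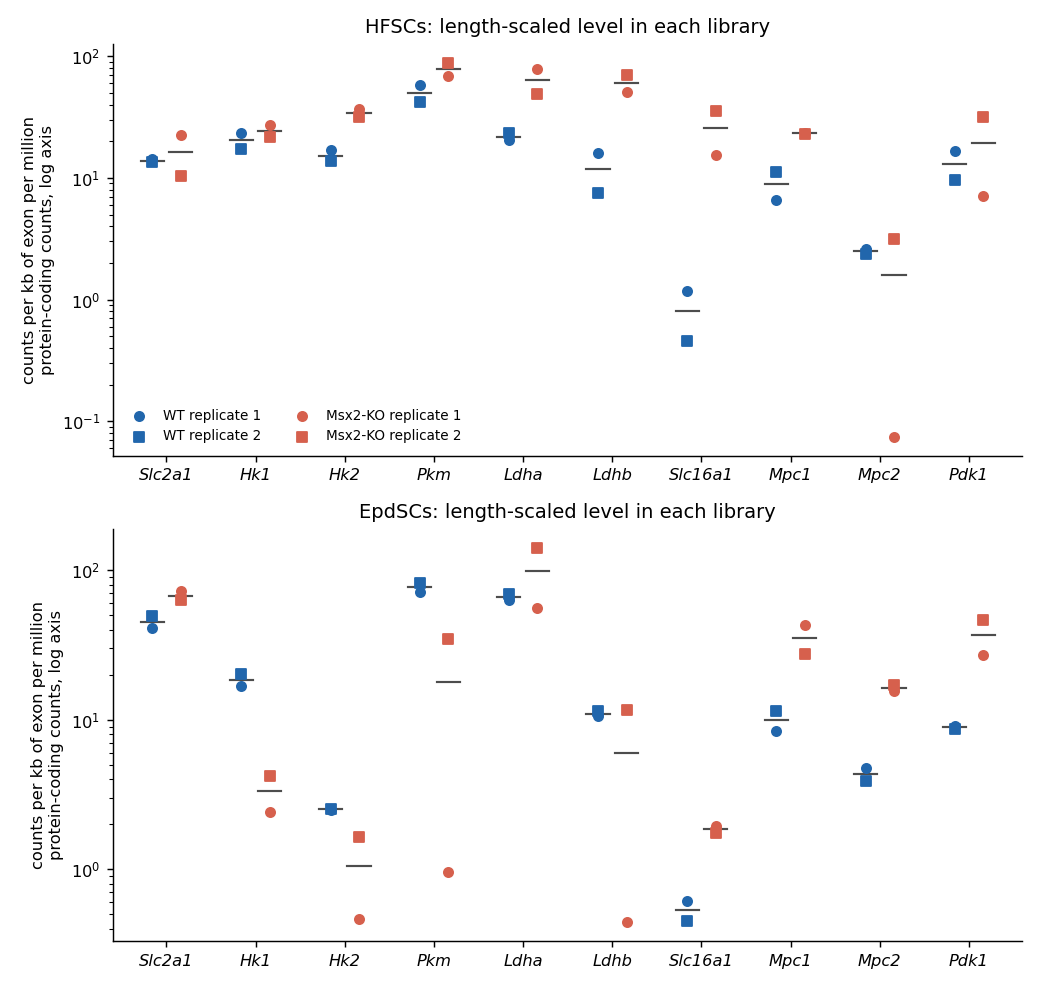
Length-scaled level of each gene in each library, as protein-coding CPM per kilobase of exon on a log axis, for HFSCs (top) and EpdSCs (bottom), with blue for WT, orange for KO-labelled libraries and lines for the mean of each group of 2. In WT of both cell types Pkm is the highest (49.9 and 76.9) and Slc16a1 the lowest (0.813 and 0.534), and the tables were normalized separately.

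Of 83 other genes of glucose, lactate, pyruvate and glycogen metabolism, 67 were tested in HFSCs. Of these 24 lay above WT without overlap and 16 below, or 35.8% and 23.9%, against 17.5% and 33.5% of all genes tested. edgeR called 0 of them, as it did over all genes. The median log2 fold change was 0.30 against -0.14 over all genes. In EpdSCs 72 were tested, of which 28 lay above and 27 below, or 38.9% and 37.5%, against 27.8% and 44.5% of all genes. Their median was -0.08 against -0.64. limma called 1 of the 72, as higher, while over all genes it called 1.57% higher and 7.78% lower. The gene was Gyg, which encodes glycogenin, the protein that primes glycogen synthesis. Gyg had 43.3 and 37.0 in WT and 1584 and 621 in KO-labelled libraries, and its log2 fold change of 4.60 (SE 0.67; limma, adjusted p = 0.0399) passed the test, a call lost when either WT library was left out.

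In HFSCs the highest of the well measured genes was Eno1, the glycolytic enolase, with 21.7 and 19.9 normalized counts in WT and 693 and 442 in KO-labelled libraries. Its log2 fold change was 4.75, and 1.56 when its counts were summed with those of the near-identical Eno1b, with which it shares reads. Pcx, which encodes the pyruvate carboxylase that makes oxaloacetate, had 24.0 and 9.07 in WT and 233 and 293 in KO-labelled libraries. Pdhx, a structural part of the pyruvate dehydrogenase complex, had 34.5 and 36.3 against 191 and 187. Both were thus higher without overlap. Rpe and Pgam1, of the pentose phosphate pathway and of glycolysis, were also above WT but uneven between the KO-labelled replicates. Rpe had 53.9 and 47.2 against 221.8 and 119, and Pgam1 had 74.1 and 119.7 against 509.6 and 137. Without replicate 1 of the KO-labelled libraries, the log2 fold change of 1.75 in each became 1.2 for Rpe and 0.50 for Pgam1. The lowest were Pdk2, another kinase that inhibits pyruvate dehydrogenase (-1.48), its target subunit gene Pdha1 (-1.09), the phosphatase regulator Pdpr (-0.98), the glycolytic isomerase Gpi1 (-0.68) and the glucose-responsive transcription factor gene Mlxip (-0.67).

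In EpdSCs the genes with the highest values beside Gyg were Vhl, whose product marks HIF proteins for degradation (log2 fold change 5.03), the glucose transporter gene Slc2a12 (3.47), the glycolytic kinase gene Pgk1 (3.28) and the pentose phosphate gene Rpia (2.26). Pgk1 counted together with its copy Pgk1-rs7 had a log2 fold change of 2.62. Slc2a12 had 985 and 1296 in WT and 18741 and 8428 in KO-labelled libraries, the highest values of the pathway genes named. At the other end were Pgls of the pentose phosphate pathway, with 554 and 492 against 7.64 and 74.8, and the HIF-2α gene Epas1, with 151 and 322 against 2.55 and 119. Pygl, the liver form of glycogen phosphorylase, had 309 and 409.7 against 11.5 and 195. The glycogen synthase gene Gys1 had 195 and 272 in WT and was listed at 0 in replicate 1 of the KO-labelled libraries and 89.3 in replicate 2, and the glucose transporter gene Slc2a8 had 195 and 212 against 0 and 86.9. Without replicate 1 of the KO-labelled libraries the log2 fold change of Epas1 went from -3.43 to -0.89, that of Pygl from -2.85 to -0.86 and that of Pgls from -4.35 to -2.79. None of these genes but Gyg passed the test, with adjusted p-values from limma of 0.0563 for Slc2a12 up to 0.267 for Epas1.

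**Figure D5:**
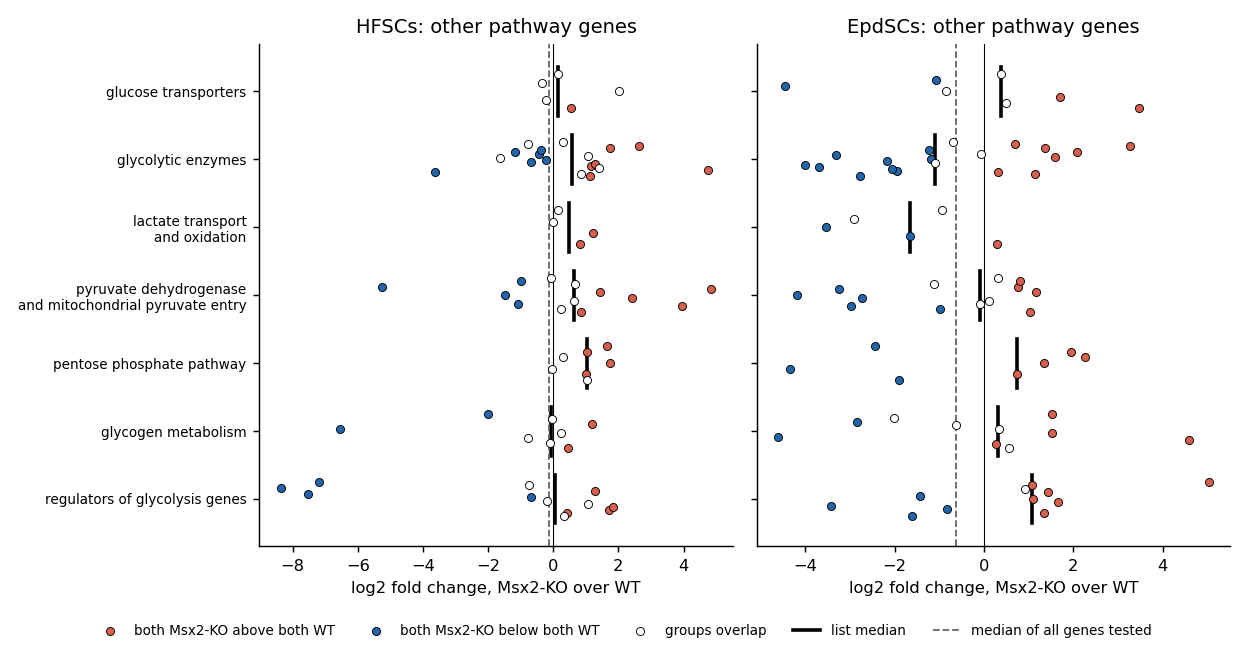
Log2 fold change, Msx2-KO over WT, of each other pathway gene tested in HFSCs (left) and EpdSCs (right), by list, with orange where all KO-labelled libraries exceeded all WT libraries, blue where both lay below and white where the groups overlapped. Black bars mark the list medians and the dashed lines the medians of all genes tested, -0.14 and -0.64.

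By list, the pentose phosphate pathway had 4 of 7 genes above WT without overlap in either cell type, with 0 below in HFSCs and 3 in EpdSCs. The glycolytic enzymes split in HFSCs, with 6 of 18 above and 6 below, and in EpdSCs, with 7 of 19 above and 9 below. The medians of that list were 0.58 and -1.09. Genes of pyruvate dehydrogenase and pyruvate entry were above WT in 5 of 13 and below in 4 in HFSCs, and above in 4 and below in 5 in EpdSCs. Glucose transporters were above in 1 of 5 in HFSCs and in 2 of 7 in EpdSCs, where another 2 were below. Lactate transport and oxidation genes were above in 2 of 4 in HFSCs, and above in 1 and below in 2 of 5 in EpdSCs. Glycogen genes were above in 2 and below in 2 of 8 in HFSCs, and above in 4 and below in 2 of 10 in EpdSCs. Regulators of glycolysis genes were above in 4 and below in 4 of 12 in HFSCs, and above in 6 and below in 4 of 11 in EpdSCs. In EpdSCs these counts stand against 27.8% and 44.5% of all genes, and in HFSCs against 17.5% and 33.5%.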

How the data were processed

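Bulk RNA-seq libraries of sorted HFSCs and EpdSCs were grouped by their sample labels, with 2 WT and 2 Msx2-KO libraries per cell type. The authors prepared stranded total RNA libraries and used STAR 2.7.3a within Partek Flow, with GRCm38/mm10 as the genome and GENCODE M25 as the annotation. Use of strand in counting is not given in the sources used here. The authors' HFSC values were deposited as estimated counts, not normalized. For EpdSCs the deposited values were a normalized signal, estimated counts divided by 1 factor per library, of which a single count was worth 0.674 to 1.27. The authors' comparison tables (p-values, FDR, ratios, fold changes and pooled means) were not used. The number of value columns mapped to no sample was 0.

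After rounding, a filter on low counts and TMM scaling, HFSC counts entered the quasi-likelihood test of edgeR 4.0.16. For EpdSCs limma 3.58.1 was fitted to log2(value + 1), a scale that understates changes of low genes, without a filter. Calls needed a Benjamini-Hochberg adjusted p under 0.05 over all genes tested and a fold change over 2. Alternatives used DESeq2 1.42.0, limma-trend, other scalings, filters and pseudocounts, a replicate block, and each library left out. On data simulated at a dispersion of 0.05 in which 200 genes differed 8-fold, edgeR recovered 200 and called 6 others of 13812 HFSC genes, and limma recovered 200 and called 15 others of 16231 EpdSC genes. At a dispersion of 0.5 both called 0, and edgeR estimated 0.823 in HFSCs. No dispersion was estimated in EpdSCs. The simulated libraries differed only in size and in the 200 genes, not in their share of mitochondrial and ribosomal RNA. The simulation therefore does not show how many changed genes the EpdSC test would recover in these data. Exon lengths and overlaps came from GENCODE M21 (GRCm38), R 4.3.3 and Python 3.11.15 with matplotlib 3.10.9 were used, and promoters came from RefSeq.

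The members, the pathway and marker lists and the tests were chosen with earlier results of these data known. Named were all members, and of the other pathway genes in each cell type those called and the 5 highest and 5 lowest log2 fold changes among genes without overlap and with a mean of at least 100. Bsg, Slc16a3, the ratios with Bsg and between Mpc1 and Mpc2, and the sums with gene copies were chosen after their values were seen. So were Aldoa, Tkt, Emb and Egln3. Intervals were exact Clopper-Pearson at 95%.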

Additional observations from a re-analysis of the deposited data

Results flagged for a closer look

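Hk2 and Pkm had the pair of KO-labelled libraries above the WT pair in HFSCs and below it in EpdSCs. The log2 fold change of Hk2 was 0.94 in HFSCs and -0.80 in EpdSCs, and that of Pkm was 0.44 and -3.01. The EpdSC value of Hk2 was close to the median of all genes, -0.64, and its HFSC value was 0.08 with library totals. The value of Pkm was -0.48 in HFSCs with library totals and -0.86 in EpdSCs without KO-labelled replicate 1. Over all genes tested, 17.5% lay above WT in HFSCs and 44.5% below it in EpdSCs, and genes with both were not counted. Of the other pathway genes named, with a mean of at least 100 in both cell types, Eno1 and Pdhx showed the same pattern. Eno1 had 4.75 in HFSCs and -1.95 in EpdSCs, or 1.56 and -2.12 when summed with Eno1b. Pdhx had 2.41 and -2.74. Other pathway genes at that mean, but not named for their rank, also showed the pattern without overlap. They were Aldoa (1.13 and -2.78), Tkt (1.66 and -2.45), Emb (1.21 and -1.66) and Egln3 (1.70 and -0.83). Pdpr went the other way, with -0.98 in HFSCs and 0.80 in EpdSCs. The difference between the cell types was not tested in any of these genes, since the tables were deposited in different units and the WT HFSC mice were younger than all others.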

How the results depend on the processing

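In HFSCs edgeR called 0 of 14422 genes and 0 other pathway genes. The genes called numbered 674 with DESeq2 (5 of the pathway), 1407 with limma-trend (6), 51 with library totals, 2 with at least 10 counts in every library, and 231 with the replicate block (2). Leaving out each library gave 132 to 9272 called genes and 1 to 38 of the pathway. Library totals moved the members' HFSC median log2 fold change from 0.69 to -0.20, while the median of all genes moved from -0.14 to -1.002. In EpdSCs 1518 genes were called, and 0 to 10376 when each library was left out, where 0 came from leaving out either WT library (2060 and 2077 genes at an unadjusted p under 0.05, limma). The pathway genes called there numbered 0 with a pseudocount of 0.1, 4 with 10, 2 with library totals, 5 with the prior spread as a trend, 2 with TMM factors and 0 to 49 when each library was left out. Members were called with a pseudocount of 10 (Mpc2, Pdk1, among 1973 genes), the trend (Hk1, Mpc2, Pdk1, among 2132) and TMM factors (Pdk1, among 1489), and numbered 5 without Msx2-KO replicate 1 (37.6% of genes called) and 9 without replicate 2 (63.9%). In another setting the EpdSC values were rescaled to library totals after mitochondrial and ribosomal RNA genes were removed. The EpdSC median of the members was then 0.62 and that of all genes -1.20. The log2 fold change of Ldhb in EpdSCs, -1.52, ran from -3.40 to 0.37 when each library was left out and turned without Msx2-KO replicate 1. A fit that leaves out a library assumes that the lone library of its group varies like the others, and the causes of these shifts were not tested.

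The replicate numbers are not said to pair the libraries, and deviations of same-numbered libraries had a correlation of -0.007 in HFSCs and -0.04 in EpdSCs. In EpdSCs the replicate block gave 1271 called genes and 0 members. TMM factors in EpdSCs, library totals after removing mitochondrial and ribosomal RNA in HFSCs, sums with gene copies, folds in protein-coding CPM and the counts of overlap under other scalings were added after seeing the data. Low counts limit Slc16a1, with 17 and 3 in WT HFSCs, and Mpc2, with 2 in HFSC replicate 1 labelled Msx2-KO. That replicate had the largest total of the HFSC libraries, 11016659 counts, and the cause of its low Mpc2 value was not tested.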
